A study of Rattus norvegicus with 84 samples.

Results

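The 6 libraries compared here hold the miRNAs of brain-derived extracellular vesicles (EVs) from rats of the control group 31 days poststroke and from healthy rats, 3 libraries of 3 rats in each group. They were chosen by the sample labels from the 84 libraries of the series, in which 21 rats in 7 groups each gave an mRNA and a miRNA library from brain and from plasma. The male Sprague-Dawley rats of the control group, 8 to 12 weeks old at the start, had the right middle cerebral artery occluded for 90 min and received saline through the common carotid artery on day 3. The healthy rats are labelled only as healthy, and neither their age nor a sham operation or injection is given, so stroke, the surgery, the injection and growing older by a month cannot be told apart in this comparison. The hNSCs group used below for comparison had the same stroke and received human neural stem cells in place of saline. EVs were prepared from tissue of the ipsilateral hemisphere. The count table lists 699 known rat miRNAs, of which 599 had a count in at least 1 of the 6 libraries. The 350 that passed the filter on low counts were tested. The others were too low to test and enter no statement on calls.

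MiRNAs are short RNAs cut from a hairpin precursor, and either strand of the hairpin, named the 5p or 3p arm, can be kept. They pair with target mRNAs mainly through the seed, bases 2 to 8 from the 5′ end, and lower the amount or translation of these targets, so miRNAs with 1 seed are read as a family. Cells release miRNAs in EVs, and EVs prepared from a tissue carry miRNAs typical of its cells. In the brain, miR-124, miR-9 and miR-128 mark neurons, miR-219 and miR-338 oligodendrocytes, miR-126 endothelium, and miR-142, miR-155 and miR-223 myeloid cells.

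The mature sequences below belong to the miRNAs on which the results turn, with the seed in capitals. A mature sequence under the same name was found in RefSeq (build GRCr8) for 627 of the 699 known miRNAs, and 626 of these were identical to the sequence the authors deposited. The first set shows pairs of miRNAs that share a seed. Some pairs moved together and some unequally, and the near-identical miR-7a-5p and miR-7b had almost the same counts.
miR-7a-5p: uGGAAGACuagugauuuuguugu
miR-7b: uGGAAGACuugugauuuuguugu
miR-146a-5p: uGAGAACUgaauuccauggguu
miR-146b-5p: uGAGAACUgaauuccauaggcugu
miR-190a-5p: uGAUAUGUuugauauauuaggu
miR-190b-5p: uGAUAUGUuugauauuagguu
miR-1843a-3p: uCUGAUCGuucaccuccauaca
miR-1843b-3p: uCUGAUCGuuccccuccauac
miR-148a-3p: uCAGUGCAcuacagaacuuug
miR-152-3p: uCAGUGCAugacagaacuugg
miR-132-3p: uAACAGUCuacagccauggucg
miR-212-3p: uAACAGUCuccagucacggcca
Between miR-7a-5p and miR-7b the only substitution is A10U, counted from the 5′ end, outside the seed. MiR-146a-5p and miR-146b-5p share their seed and differ by G18A and U21C over the length of the shorter one, and miR-1843a-3p and miR-1843b-3p differ by A12C. The second set shows the miRNAs with other seeds that rose or fell with groups that did not overlap.
miR-155-5p: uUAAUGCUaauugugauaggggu
miR-142-3p: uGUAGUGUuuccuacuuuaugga
miR-34c-5p: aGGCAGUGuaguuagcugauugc
miR-450a-5p: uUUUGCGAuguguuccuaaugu
miR-342-3p: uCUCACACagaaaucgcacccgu
miR-30a-3p: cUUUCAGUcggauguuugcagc
miR-381-3p: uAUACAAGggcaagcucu
miR-539-3p: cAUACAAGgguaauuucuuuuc
miR-7a-1-3p: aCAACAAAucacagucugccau
miR-3065-5p: uCAACAAAaucacugaugcu
MiR-7a-1-3p, the other arm of a miR-7a hairpin, and miR-3065-5p carry the seed CAACAAA and both fell. MiR-150-5p, miR-30e-3p and miR-136-5p, also described below, are named only.

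The brain libraries of the control group at 31 days held 610131 to 1034719 unique molecular identifier (UMI) counts, 88.9% to 93.2% of them on known miRNAs, and the healthy libraries held 343498 to 678032, with 86.1% to 88.1% on known miRNAs. Between 440 and 504 known miRNAs were detected per library. Brain miRNAs marked the libraries as brain. MiR-9a-5p took 3.86% to 9.29% of the known counts in the 21 brain libraries and at most 0.0159% in the 21 plasma libraries, whereas the liver miRNA miR-122-5p took at most 0.0311% in brain and 1.35% to 16.7% in plasma. Within the healthy group, replicate 2 stood apart, with a Pearson r of 0.952 across miRNAs with each of the others against 0.988 between replicates 1 and 3, and within the control group at 31 days r was 0.972 to 0.983. Between the groups r was 0.917 to 0.968. Control replicate 3 was closest, with 0.965 and 0.968 to healthy replicates 1 and 3, so it was more like them than healthy replicate 2 was. These r values are across miRNAs, which are not replicates. Levels are given as CPM, the counts of a miRNA relative to a fixed total of known-miRNA counts, scaled with edgeR's TMM factors, and are relative amounts within a library. Less EV RNA of a cell type and fewer EVs of that type therefore cannot be told apart.

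Of the 350 miRNAs, 44 rose and 44 fell at 31 days, 25.1% in all and 12.6% in each direction, which here means over 1.5-fold with an edgeR adjusted p below 0.05. In 38.3% of all tested miRNAs the 3 control libraries did not overlap the 3 healthy ones, with 79 above (22.6%) and 55 below (15.7%). Of the 88 called, 82 (23.4% of those tested) did not overlap and 6 did. The split of calls depended on the scaling. TMM factors were 0.805 to 0.861 at 31 days and 0.888 to 1.02 in healthy libraries, the median log2 fold change over the 350 was 0.11 with TMM and −0.12 with library totals alone, and with totals alone 31 rose and 60 fell. With the size factors of DESeq2's kind (RLE) the median was 0.01 and the numbers were 41 and 53. Without healthy replicate 2 they were 35 and 42, and with predicted miRNAs kept in the fit 26 known ones rose and 16 fell. Of the 88 called miRNAs, 31 were called under every other fit that tested them, out of up to 17. Tested and called in all 17 were, among others, miR-7a-5p, miR-146a-5p, miR-190b-5p, miR-142-3p, miR-34c-5p, miR-150-5p, miR-132-3p and miR-30a-3p. Of the 31, miR-3065-5p and miR-450b-3p were tested in only 15 fits. MiR-30e-3p, miR-344b-3p, miR-344b-1-3p and miR-7b were tested in 16.

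**Figure D1:**
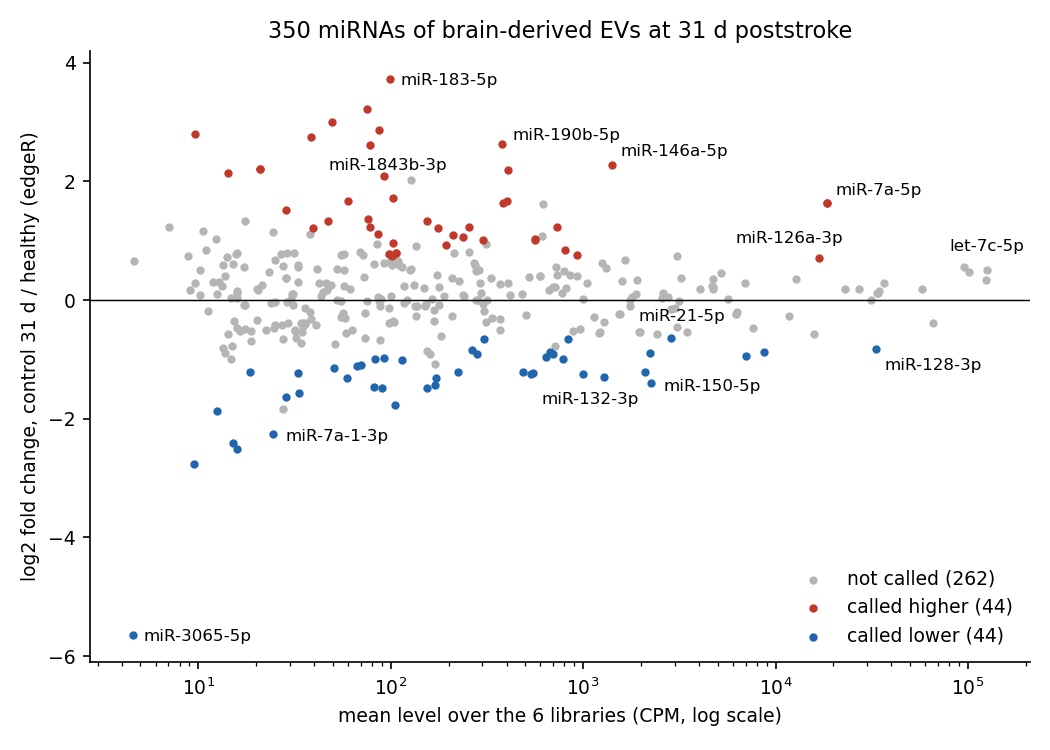
Change of each of the 350 tested miRNAs (log2 fold change, control 31 d against healthy, edgeR) against its mean level over the 6 libraries (CPM, log scale). Points are miRNAs, red for the 44 called higher, blue for the 44 called lower and gray for the 262 not called. MiR-7a-5p is the most abundant of those called higher and miR-128-3p of those called lower.

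The 10 most abundant miRNAs were let-7a, let-7b, let-7c, let-7e and let-7f-5p, miR-125b-5p, miR-9a-5p, miR-30a-5p, miR-29a-3p and miR-29c-3p, and none of them was called. MiR-9a-5p was called lower with library totals alone or without control replicate 3, let-7b-5p and let-7c-5p higher without healthy replicate 2, and miR-125b-5p higher without control replicate 2. Let-7c-5p, which took 8.84% to 11.5% of the known counts in healthy libraries and 11.51% to 12.7% at 31 days, had a log2 fold change of 0.51 (edgeR adjusted p = 0.0269), short of 1.5-fold. The let-7 family, with the seed GAGGUAG, restrains growth genes in differentiated cells. Of the 10 tested miRNAs of the let-7 list, 2 rose, let-7d-3p and miR-98-5p, and none fell, beside 12.6% of all tested miRNAs in each direction. Let-7d-3p is the other arm of its hairpin and has another seed, UAUACGA. Among the 9 tested miRNAs with the let-7 seed, miR-98-5p alone was called. The median of the list was 0.41, beside 0.11 over all tested, and 0.19 beside −0.12 with library totals alone. Of let-7i-3p, the minor arm of its hairpin, the healthy libraries held 23.9, 13.2 and 49.0 CPM and the control libraries 93.02, 89.3 and 91.8 CPM. All 3 control libraries lay above all healthy ones, by 1.67 on the log2 scale (standard error 0.43, edgeR adjusted p = 0.00659).

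MiR-7a-5p, an abundant miRNA of neurons and neuroendocrine cells that the circular RNA Cdr1as binds, was the most abundant of those that rose. It measured 6612, 6932 and 13519.5 CPM in the healthy libraries and 28152, 38799 and 17402 CPM at 31 days. The lowest control library lay above the highest healthy one. The log2 fold change was 1.64 (standard error 0.34, edgeR adjusted p = 0.00156). MiR-7b carried almost the same counts, within 0.494% of miR-7a-5p in every brain library, so the pair counts as 1 observation. The other arm of a miR-7a hairpin went the other way. The counts do not tell how much of miR-7a-5p, which shares reads with miR-7b, came from that hairpin. MiR-7a-1-3p measured 54.6, 20.8 and 46.7 CPM in healthy libraries and 3.45, 9.65 and 11.2 CPM at 31 days, and fell by 2.26 on the log2 scale (standard error 0.47, edgeR adjusted p = 0.00156). Over the 6 libraries this arm averaged 24.4 CPM, beside 18569 CPM for miR-7a-5p, so its values rest on few counts.

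Members of the inflammation and microglia list moved in both directions. Of its 15 miRNAs 11 were tested, 3 rose, 3 fell and 5 did not pass, beside 12.6% of all tested miRNAs in each direction. The median was 0.10, beside 0.11 over all tested. MiR-146a-5p, induced by NF-κB and known as a brake on Toll-like receptor signaling, measured 515, 441 and 492.8 CPM in healthy libraries and 2274, 3462 and 1301 CPM at 31 days. Every control library lay far above the healthy ones, and the log2 fold change was 2.28 (standard error 0.59, edgeR adjusted p = 0.00659). MiR-142-3p, made by blood-forming cells and microglia, measured 126.2, 193 and 119 CPM in healthy and 582, 1072 and 358 CPM in control libraries (2.19 on the log2 scale, edgeR adjusted p = 0.00241). Its other arm, miR-142-5p, also on the list, had a log2 fold change of −0.22 (edgeR adjusted p = 0.79) with overlapping groups. MiR-155-5p, which promotes macrophage activation, was low, with 3.41, 17.03 and 7.01 CPM in healthy and 77.5, 89.3 and 35.8 CPM in control libraries (log2 fold change 2.75, edgeR adjusted p = 0.0149). Its groups did not overlap, but it was no longer called without control replicate 2, without healthy replicate 1 or 3, or with predicted miRNAs kept, and adjusted p reached 0.0669 at most over the alternatives. In the 3 that rose, control replicate 3 was the lowest of its group.

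The miRNAs of this list that fell included 2 known from lymphocytes. MiR-150-5p, abundant in mature B and T cells, measured 3399.8, 3246 and 3157 CPM in healthy libraries and 1454, 1038 and 1245 CPM at 31 days. Both groups were tight and far apart, and the fall of 1.39 on the log2 scale (standard error 0.17) had the lowest adjusted p of the comparison, together with miR-1843b-3p (edgeR adjusted p = 1.25e-05). MiR-342-3p, also abundant in blood cells, measured 2721, 3471 and 2589.9 CPM in healthy and 1314, 1178 and 1309 CPM in control libraries (−1.21 on the log2 scale, edgeR adjusted p = 9.45e-05). MiR-146b-5p, with the seed of miR-146a-5p, measured 1108, 1067 and 871 CPM in healthy and 641, 685 and 613 CPM in control libraries. It fell by 0.65 on the log2 scale (edgeR adjusted p = 0.00919), opposite to miR-146a-5p, and lost its call without control replicate 1 or with predicted miRNAs kept. MiR-21-5p and miR-223-3p, of reactive glia and of neutrophils, did not pass. MiR-21-5p measured 1681, 2203 and 1406 CPM in healthy and 1781, 2158 and 1336 CPM in control libraries, overlapping throughout.

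**Figure D2:**
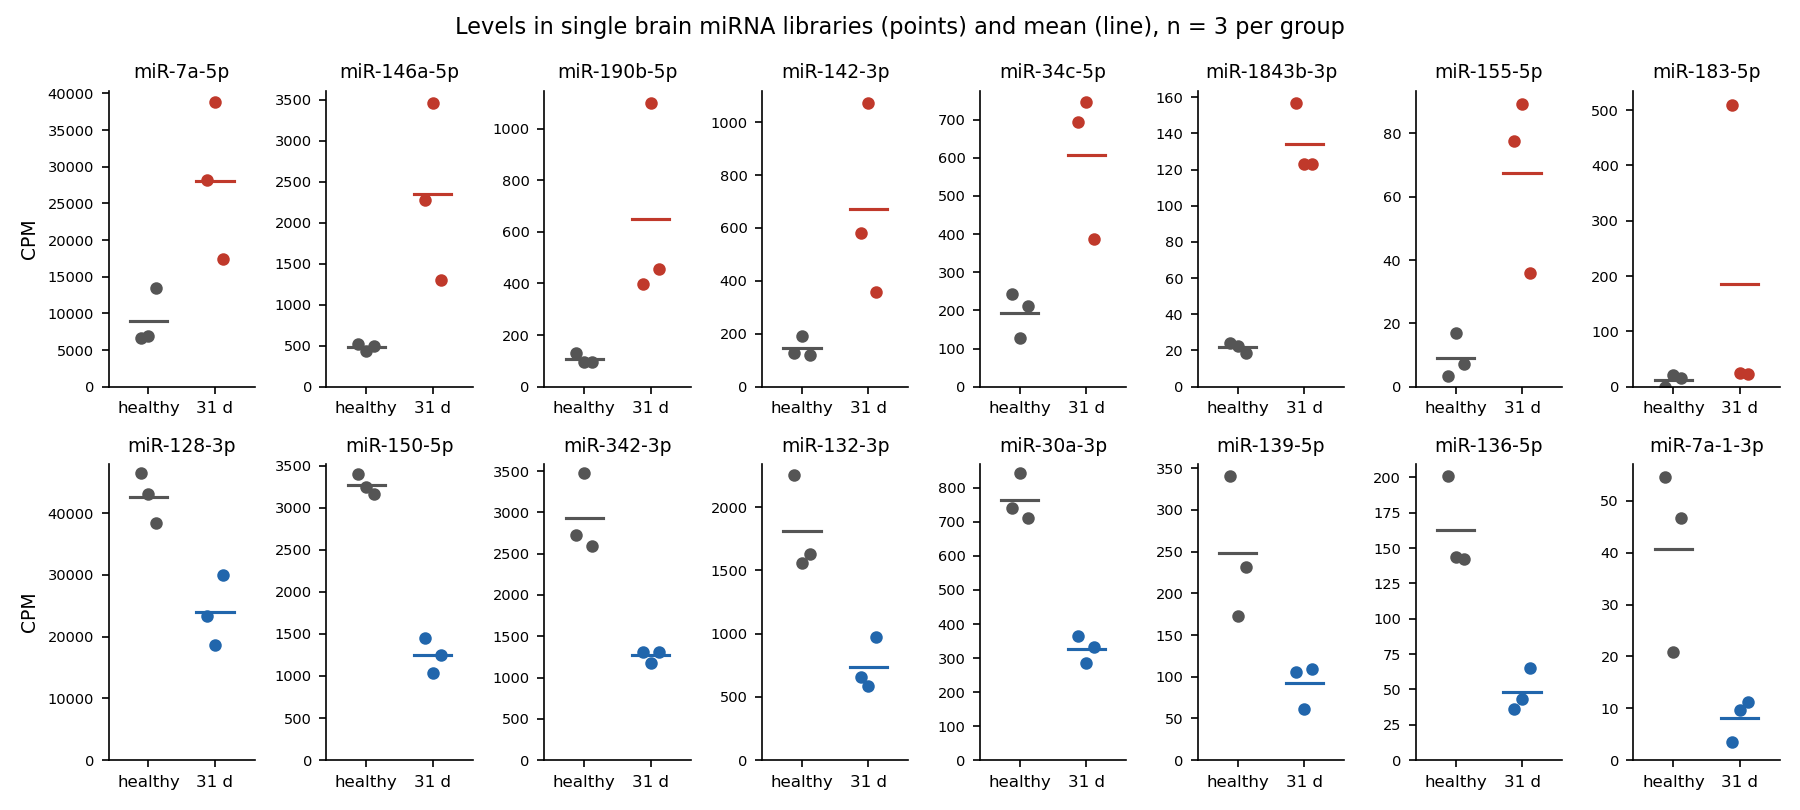
Level (CPM, linear axis from 0) of 16 miRNAs in each of the 3 healthy and 3 control 31 d brain libraries, points being libraries and lines group means. The upper row holds miRNAs that rose and the lower row miRNAs that fell, and in miR-183-5p control replicate 1 alone stands at 510 CPM.

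Further rises were in miRNAs of unlike families. MiR-1843b-3p measured 23.9, 22.7 and 18.7 CPM in healthy libraries and 157, 123 and 123 CPM at 31 days, with a log2 fold change of 2.62 (standard error 0.33, edgeR adjusted p = 1.25e-05). MiR-1843a-3p, which shares its seed, measured 58.0, 32.2 and 18.7 CPM and 174, 135 and 138.8 CPM in the same order. For both, the control libraries lay far above the healthy ones.
MiR-190b-5p measured 129.6, 94.6 and 95.8 CPM in healthy and 399.7, 1098 and 457 CPM in control libraries (2.63 on the log2 scale, edgeR adjusted p = 0.000575), while miR-190a-5p, with the same seed, had a log2 fold change of 0.49 (edgeR adjusted p = 0.0961). MiR-483-3p, from an intron of Igf2, measured 6.82, 37.9 and 14.0 CPM in healthy and 274, 130.3 and 60.4 CPM in control libraries (2.86 on the log2 scale, edgeR adjusted p = 0.0056). MiR-152-3p and miR-148a-3p, which share a seed and target DNA methyltransferases, rose by 1.63 and 1.24 on the log2 scale. MiR-375-3p, a miRNA of islet and neuroendocrine cells, measured 30.7, 20.8 and 30.4 CPM in healthy and 81.0, 76.0 and 44.8 CPM in control libraries (log2 fold change 1.33, edgeR adjusted p = 0.00622).

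MiRNAs of the X-linked hairpins next to miR-322 rose together in number, but at low levels. RefSeq places the hairpins of miR-322, miR-351, miR-450a, miR-450b, miR-503 and miR-542 next to each other, with no gap over 10 kb between starts. Of their 10 tested miRNAs, 7 rose and none fell, with a median log2 fold change of 1.24, beside the 12.6% of all tested miRNAs that rose. These were miR-351-5p, miR-450a-5p, miR-450b-5p, miR-450b-3p, miR-503-3p, miR-542-5p and miR-542-3p. This group is not 1 of the lists, and of all groups of neighbouring hairpins it had the most rises. Its share of rises is therefore a description and not a test. MiR-542-3p measured 44.3, 36.0 and 49.0 CPM in healthy and 132.6, 137.5 and 58.2 CPM in control libraries (1.37 on the log2 scale, edgeR adjusted p = 0.0207). MiR-450a-5p and miR-450b-5p carried the same value in each of the 6 libraries, 10.2, 3.79 and 9.34 CPM in healthy and 49.96, 36.2 and 15.7 CPM in control libraries. The pair counts as 1 observation among the 7. Counts of calls here were fragile, with 5 called under RLE factors or library totals alone and 2 without healthy replicate 2, while the median stayed between 1.02 and 1.24 in these fits.

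Markers of other cell types were read from lists. Of the 14 tested miRNAs of the scar and mesenchymal list, 4 rose and none fell, beside 12.6% of all tested miRNAs in each direction, and the median was 0.38, beside 0.11 over all tested. MiR-199a-5p, made with miR-214 by fibroblasts and mesenchymal cells, measured 10.2, 15.1 and 7.01 CPM in healthy and 96.5, 132.7 and 35.8 CPM in control libraries (3.00 on the log2 scale, edgeR adjusted p = 0.0112), and lost its call without control replicate 2 or healthy replicate 3. Its more abundant other arm, miR-199a-3p, also on the list, did not pass (log2 fold change 1.62, edgeR adjusted p = 0.0648). MiR-145-3p, a minor arm of a smooth muscle miRNA, also rose, but it was not called in 8 of 17 other fits. The main arm, miR-145-5p, had a log2 fold change of 0.29 and did not pass (edgeR adjusted p = 0.507). The others of the list that rose, miR-182 and miR-183-5p, belong to a cluster known from sensory cells and not from scar. MiR-183-5p measured 0, 20.8 and 16.3 CPM in healthy and 509.9, 25.3 and 22.4 CPM in control libraries, and miR-182 measured 10.2, 13.2 and 18.7 CPM and 367, 20.5 and 20.1 CPM. Their log2 fold changes of 3.74 and 3.23, the highest of the comparison, rested on control replicate 1 and were 0.84 and 0.56 without it (edgeR adjusted p = 0.405 and 0.478).

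Of the 9 tested miRNAs of choroid plexus and ciliated cells, 2 rose and none fell, beside 12.6% in each direction over all tested, and the median was 0.75. MiR-34b-5p and miR-34c-5p, which multiciliated cells such as ependyma express, rose, while their other arms had log2 fold changes of −0.00044 (miR-34b-3p) and 0.25 (miR-34c-3p) with overlapping groups. MiR-34c-5p measured 242, 128.7 and 210.2 CPM in healthy and 693, 745 and 387 CPM in control libraries (1.67 on the log2 scale, edgeR adjusted p = 0.00102). MiR-204-5p, the main miRNA of choroid plexus epithelium, measured 2605, 2589 and 1677 CPM and 4245, 4618 and 2686 CPM and did not pass (log2 fold change 0.75, edgeR adjusted p = 0.107), although its groups did not overlap and the fit with a replicate block called it higher. The summed level of the tested members was 2982 to 4246 CPM in healthy and 4329 to 7854 CPM in control libraries, and its part in other results was not tested. As a share of known counts the list overlapped, with 0.303% to 0.421% in healthy and 0.357% to 0.676% in control libraries. Of the 8 tested endothelial miRNAs, 1 rose and 2 fell, beside the same 12.6% in each direction, and the numbers were 1 and 3 with RLE factors and 0 and 3 with library totals alone. MiR-126a-3p, from an intron of the endothelial gene Egfl7, measured 12423, 13210.2 and 12648 CPM in healthy and 21109, 21897 and 19689 CPM in control libraries. The rise of 0.71 on the log2 scale (edgeR adjusted p = 0.00827) was not called with library totals alone, in limma, without a filter on low counts or with predicted miRNAs kept. Its other arm, miR-126a-5p, went the other way, with 1548, 1154 and 1642 CPM in healthy and 1025, 997 and 927 CPM in control libraries. Its log2 fold change of −0.56 was short of 1.5-fold (edgeR adjusted p = 0.0362), and it was called lower with RLE factors, with library totals alone and without healthy replicate 2. MiR-139-5p and miR-139-3p fell, and miR-139-5p measured 341, 172 and 231 CPM in healthy and 105, 61.5 and 109.7 CPM in control libraries.

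**Figure D3:**
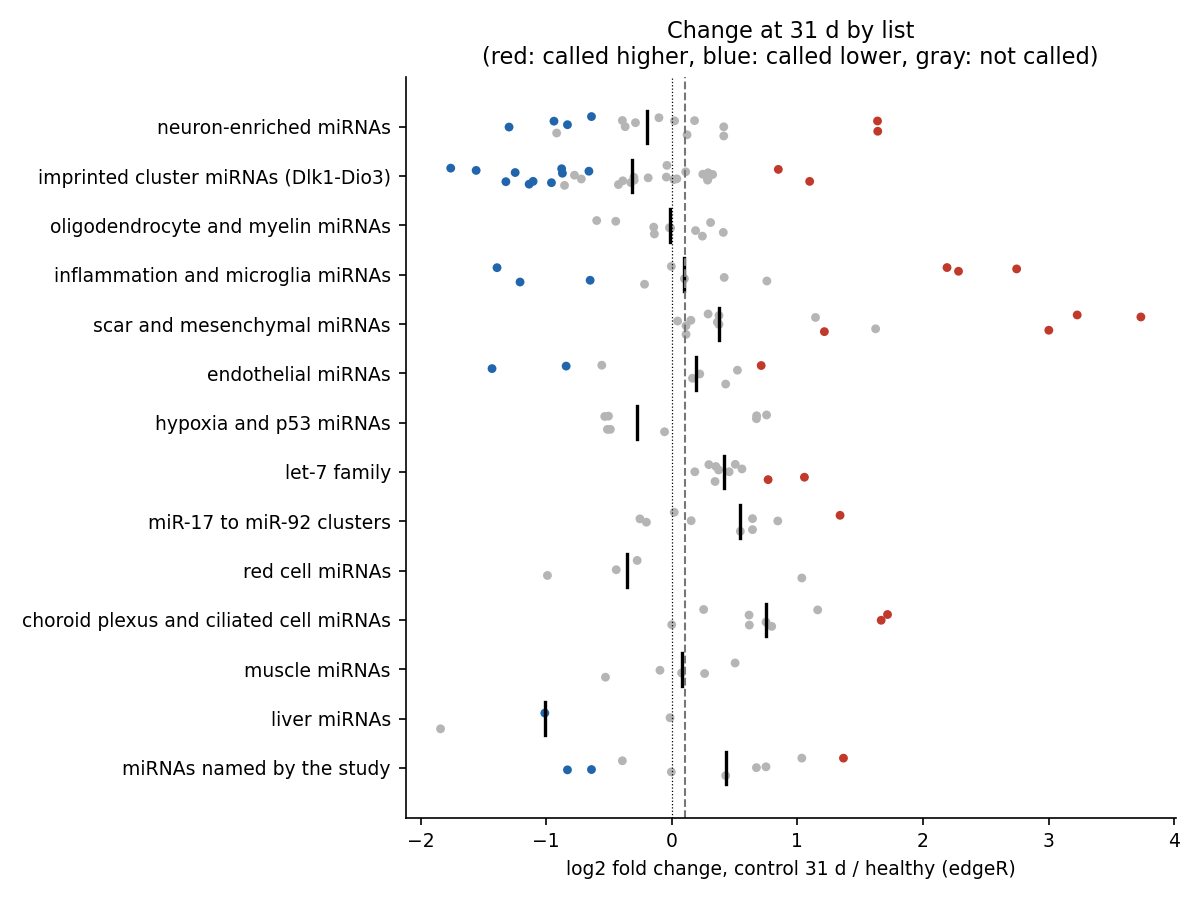
Log2 fold change (control 31 d against healthy, edgeR) of the tested members of each list, points being miRNAs and black bars list medians. The dashed line marks the median of all 350 tested, 0.11, and most members of the imprinted cluster lie to its left.

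Of the 16 tested neuron-enriched miRNAs, 4 fell, 2 rose and 10 did not pass, beside 12.6% of all tested in each direction, and the median was −0.20, beside 0.11 over all tested. The 2 that rose were miR-7a-5p and its near-copy miR-7b. MiR-128-3p, which restrains neuronal excitability, measured 46561, 43050.4 and 38379.5 CPM in healthy and 23368, 18605 and 29988 CPM in control libraries, and fell by 0.83 on the log2 scale (standard error 0.20, edgeR adjusted p = 0.00498). MiR-132-3p, induced by neuronal activity through CREB, measured 2257, 1556 and 1630.1 CPM and 659.8, 587 and 971 CPM, and fell by 1.30 (standard error 0.25, edgeR adjusted p = 0.00102). For both, the groups were apart. MiR-212-3p, from the same transcript and with the same seed as miR-132-3p, had a log2 fold change of −0.92 and narrowly missed (edgeR adjusted p = 0.0566). MiR-9a-3p fell by 0.94, while miR-9a-5p, with 72648, 79344 and 72037 CPM in healthy and 55027, 44929 and 70587 CPM in control libraries, had a log2 fold change of −0.39 and did not pass (edgeR adjusted p = 0.144). MiR-124-3p measured 4508, 2716 and 3274 CPM in healthy and 2374, 1997 and 2364 CPM in control libraries, with a log2 fold change of −0.64 (edgeR adjusted p = 0.0423), and lost its call when any of 4 single libraries, control replicate 1 or 2 or healthy replicate 1 or 3, was left out or predicted miRNAs were kept. Summed over the list, the healthy libraries held 13.8% to 16.8% and the control libraries 12.4% to 13.6% of known counts. In CPM scaled with TMM the groups overlapped, with sums of 155528 to 164959 in healthy and 153645 to 157963 in control libraries.

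MiRNAs of the imprinted Dlk1-Dio3 region, which are expressed from the maternal chromosome and in adults mainly in neurons, fell more often than they rose. Of the 38 listed, 32 were tested, 10 fell, 2 rose and 20 did not pass, beside 12.6% of all tested miRNAs in each direction. The median was −0.31 with TMM, −0.44 with RLE factors and −0.51 with library totals alone. MiR-136-5p measured 201, 143.8 and 142.5 CPM in healthy and 36.2, 43.4 and 64.9 CPM in control libraries, and fell by 1.76 on the log2 scale (edgeR adjusted p = 0.00605). MiR-434-3p, among the most abundant of the region, measured 9903, 15996 and 7898 CPM and 5950.1, 4812 and 7647 CPM (log2 fold change −0.88, edgeR adjusted p = 0.0063), with the highest control library just under the lowest healthy one. It lost its call without healthy replicate 2, its highest library, and with predicted miRNAs kept. MiR-411-5p measured 1494, 1472 and 1270.4 CPM and 579, 502.96 and 705 CPM, and here the gap was wide (−1.25, edgeR adjusted p = 0.00119). The 2 that rose were miR-370-3p (1.10) and miR-154-5p (0.85, not called in 8 of 17 other fits, library totals alone among them). Off the list but from the region, miR-539-3p, miR-382-3p and miR-412-5p fell by 1.48, 1.47 and 1.32. MiR-329-5p, also off the list, rose by 0.75 but was not called in 11 of 17 other fits. The far more abundant other arm of miR-382-3p, miR-382-5p, had a log2 fold change of 0.04 and was not called. MiR-539-3p and miR-381-3p of the region share the seed AUACAAG and both fell.

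Outside these lists more miRNAs fell, some at mid levels with little spread and others at low levels or with a wide spread in healthy libraries. MiR-30a-3p, the minor arm beside the abundant miR-30a-5p, measured 740.0, 842 and 712 CPM in healthy and 365, 285 and 331 CPM in control libraries (−1.23 on the log2 scale, edgeR adjusted p = 1.87e-05). MiR-30e-3p had almost the same counts. MiR-361-3p measured 317, 337 and 285 CPM and 141, 115 and 149.98 CPM (−1.22, edgeR adjusted p = 0.000283), and its other arm, miR-361-5p, fell by 1.00. MiR-186-5p measured 818, 394 and 843 CPM in healthy and 303, 297 and 284 CPM in control libraries, so that the control libraries were nearly equal and healthy replicate 2 was the lowest of its group. MiR-344b-3p measured 37.5, 11.4 and 32.7 CPM and 5.17, 2.41 and 6.72 CPM and fell by 2.51. MiR-3065-5p had no count in the 3 control libraries and 12 in the healthy ones, which makes it at least 6.79-fold lower against a floor of 3 counts over the group, a bound for counting error only.

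The remaining lists are short and are read beside the 25.1% called over all tested. None of the 4 tested red cell miRNAs passed, and their summed share of known counts was 1.09% to 1.41% in healthy and 0.812% to 1.03% in control libraries. In CPM scaled with TMM the sums of the tested red cell miRNAs overlapped, at 10717 to 15935.5 in healthy and 9858 to 11982 in control libraries. MiR-451-5p, their defining member, was near 0, at most 0.00902% of known counts in the brain libraries. None of 5 muscle miRNAs passed, and of 3 liver miRNAs miR-192-5p fell, though it was not called in 6 of 17 other fits. None of the 10 tested oligodendrocyte and myelin miRNAs passed. MiR-219a-2-3p, which promotes myelination, came nearest with 3147, 4147 and 3330.2 CPM in healthy and 2444, 2719 and 2637 CPM in control libraries (log2 fold change −0.45, short of 1.5-fold). None of 8 tested miRNAs of hypoxia and p53 passed, among them miR-210-3p, and of 9 from the miR-17 to miR-92 clusters miR-20a-5p rose. With library totals alone 1 of the oligodendrocyte and 2 of the hypoxia and p53 miRNAs were called lower, and miR-20a-5p was not called, nor was it in 4 more fits. A further list holds 9 of the miRNAs that the study names, chosen on these samples and so not independent. Of these, miR-542-3p rose, miR-124-3p and miR-128-3p fell, and miR-9a-5p, miR-21-5p, miR-24-3p, miR-34a-5p, miR-204-5p and miR-144-5p did not pass. The study names others for its hNSCs comparison. Among them miR-7a-5p and its near-copy miR-7b rose, and miR-325-3p (−0.39) and miR-30b-5p (0.66) did not pass. Its primers also cover miR-34b-5p and miR-34c-5p, which rose. MiR-542-3p was not called in 7 of 17 other fits, and miR-24-3p and miR-34a-5p were called higher in 1 each, without healthy replicate 1 and 3.

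Both arms were tested for 92 hairpins. In 9 of them both arms were called, 8 in 1 direction, and in 33 only 1 arm was called. These counts, and those of seeds below, stand beside the 25.1% of all tested miRNAs that were called, and no expected number was computed. The opposite calls were those of miR-7a-5p and miR-7a-1-3p, and the part of miR-7a-5p made from that hairpin is not known. With RLE factors or without healthy replicate 2, the arms of miR-126a were also called in opposite directions. The arms of miR-132, miR-139, miR-361 and miR-434 fell together, and those of miR-1843a, miR-1843b, miR-450b and miR-542 rose together. Several of these pairs rest on a weaker arm. Of up to 17 other fits, miR-542-5p was not called in 13, miR-1843a-5p and miR-1843b-5p in 10 each, miR-434-5p in 6, miR-132-5p in 5 and miR-139-3p in 4. MiR-1843a-5p and miR-1843b-5p also have almost the same counts. Among the 42 seeds carried by 2 or more tested miRNAs, 10 had 2 or more calls, 9 of them in 1 direction, and the seed GAGAACU of miR-146a-5p and miR-146b-5p had 1 in each. Several of these are near-copies that share reads, such as miR-135a-5p with miR-135b-5p, and they are not separate observations.

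**Figure D4:**
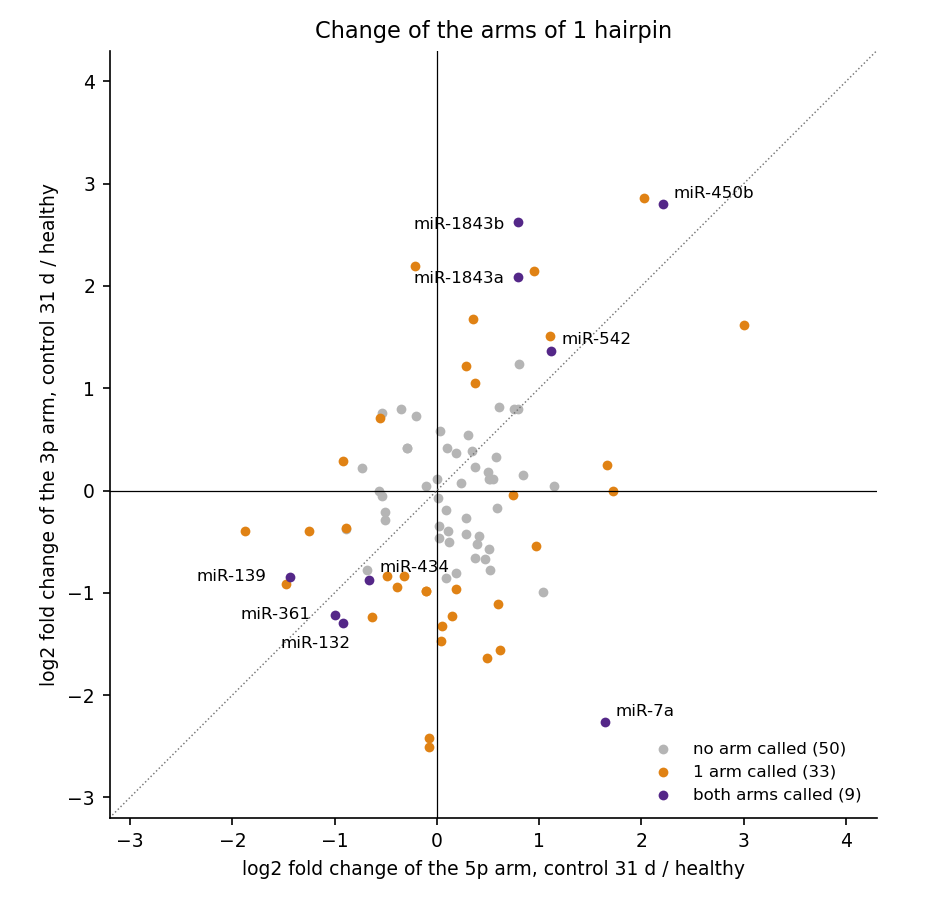
Log2 fold change (control 31 d against healthy, edgeR) of the 3p arm against the 5p arm for 92 hairpins with both arms tested, purple where both arms were called, orange where 1 was and gray where none was. MiR-7a lies alone at the lower right, with its 5p arm up and its 3p arm down, and the dotted line marks equal change.

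At the earlier times the same healthy libraries served as reference, so the values are set side by side without a test of likeness. Of the 350 miRNAs, 51 (14.6%) were called at 4 days and 68 (19.4%) at 10 days against healthy rats. MiR-150-5p was 3439 ± 538 CPM (SD, n = 3) at 4 days, 3169 ± 395 at 10 days and 1246 ± 207.7 at 31 days, beside 3268 ± 123 in healthy rats. Its means at 4 and 10 days were close to the healthy one and that at 31 days was far lower. MiR-132-3p followed the same order, with 2324 ± 221.3, 1740.3 ± 52.9 and 739.5 ± 204.1 CPM beside 1814 ± 385. MiR-7a-5p was 10478 ± 2349.7 CPM at 4 days and 9645 ± 1908 at 10 days, near the healthy 9021 ± 3899, before 28117 ± 10699 at 31 days. MiR-146a-5p was 896 ± 49.8 CPM at 4 days, 4029.6 ± 3034 at 10 days and 2345 ± 1082 at 31 days, and spread widely at both later times. MiR-142-3p was 969 ± 156 CPM at 4 days and 1326 ± 784 at 10 days, above its 31 day level of 671 ± 365.

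Against the control group at 4 days, 101 miRNAs (28.9%) were called at 31 days, 56 higher (16%) and 45 lower (12.9%), but 27 higher and 101 lower with library totals alone and 23 and 101 with limma on log2(TPM + 1). The median over all tested moved from 0.04 with TMM to −0.41 with totals, so changes of that size rest on the scaling. MiR-21-5p was 11868 ± 2276 CPM at 4 days and 1758 ± 411.2 at 31 days, a log2 difference of −2.75 (edgeR adjusted p = 0.000242). MiR-223-3p, of neutrophils, differed by −2.62 (edgeR adjusted p = 0.00088). Of the miRNAs that were higher, let-7i-3p differed by 2.75, miR-483-3p by 3.00, miR-375-3p by 2.07, miR-204-5p by 1.79 and miR-370-3p by 1.71. MiR-150-5p differed by −1.47 (edgeR adjusted p = 1.06e-05), miR-136-5p by −2.15 and miR-132-3p by −1.65.

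**Figure D5:**
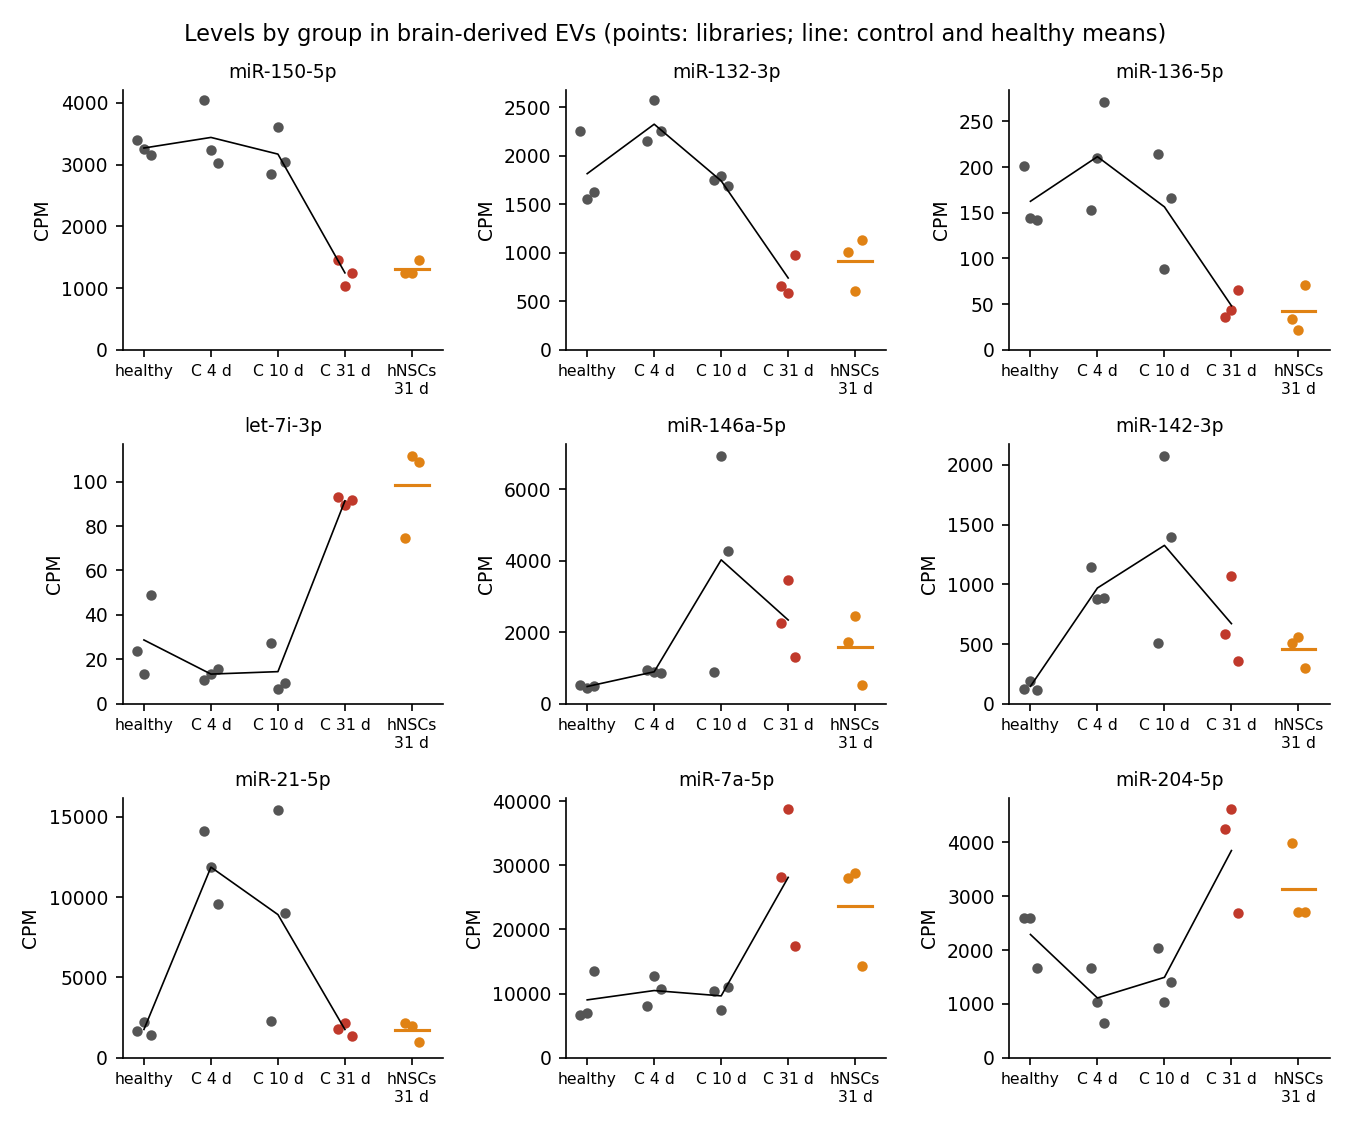
Level (CPM, linear axis from 0) of 9 miRNAs in the brain libraries of healthy rats, of the control group (C) at 4, 10 and 31 d and of the hNSCs group at 31 d, points being libraries (n = 3 each), the black line the means of healthy and control groups and the orange bar the hNSCs mean. MiR-150-5p, miR-132-3p and miR-136-5p are lower at 31 d than at 10 d in every library, and miR-21-5p at 31 d overlaps the healthy libraries.

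The hNSCs group at 31 days had its own rats and libraries and the same healthy reference. Against healthy rats 60 miRNAs (17.1%) were called in it. Between the hNSCs and the control group at 31 days, edgeR called 0 of 350 miRNAs and DESeq2 called 0, and 4 (1.14%) had an unadjusted p under 0.05. MiR-150-5p measured 1239, 1248 and 1446 CPM in the hNSCs libraries, all within the range of the control libraries. MiR-146a-5p measured 1731, 2465 and 538 CPM, with the third library near the healthy level. MiR-7a-5p measured 28016, 28824 and 14276 CPM and miR-132-3p 1011, 602 and 1129.8 CPM in these libraries. With no call, a treated group of this size does not show that the levels were the same. For miR-150-5p the log2 difference of hNSCs and control libraries was 0.07 (standard error 0.17), and for miR-146a-5p it was −0.57 (standard error 0.56).

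Over the 21 brain libraries, the levels most like that of miR-150-5p by Pearson r of log2(CPM + 1) were miR-361-3p (0.963), miR-30e-3p (0.901), miR-30a-3p (0.898), miR-186-5p (0.895) and miR-342-3p (0.891). Those most like miR-132-3p were miR-323-3p (0.912), miR-212-3p (0.909) and miR-369-3p (0.878), 2 of them from the imprinted region. MiR-146a-5p was most like miR-152-3p (0.887), miR-190b-5p (0.864), and miR-450b-5p and miR-450a-5p (both 0.846). These r values describe libraries that share groups, scaling and time, and no test was made on them.

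In plasma EVs of the same rats, edgeR called 0 of 309 miRNAs at 31 days against healthy rats, with 52 (16.8%) at an unadjusted p under 0.05 and 18 (5.83%) called by DESeq2. On simulated data this test recovered 4.26% of 2-fold and 63.8% of 4-fold changes in plasma, against 52.6% and 89.8% in brain. MiR-150-5p measured 28638, 22861 and 22363 CPM in healthy plasma and 5700.0, 6632 and 22936 CPM at 31 days, so replicate 3 overlapped the healthy libraries and the others lay far below. MiR-342-3p measured 6814, 8578 and 6653 CPM in healthy plasma and 2152, 1938 and 5470 CPM at 31 days (−1.21 on the log2 scale, edgeR adjusted p = 0.142). For miR-7a-5p the healthy plasma held 687, 203.95 and 937 CPM and the control plasma 210.1, 147.3 and 730.4 CPM, with the groups overlapping. The test of a different change in the tissues called 0 of 384 miRNAs and recovered 7.38% of simulated 4-fold differences, so it could not show such a difference at this size. Without control replicate 3, 32 miRNAs were called in plasma and 74 in the test of the difference.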

How the data were processed

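Small RNA libraries were made by the authors with the QIAseq kit and UMIs, sequenced in pairs, cleaned, compared with the Silva, GtRNAdb, Rfam and Repbase databases with Bowtie and counted on known miRNAs of miRBase and on predicted ones. Per the labels the build was Rnor_6.0, and versions are not given in the sources used here. The deposited counts are whole UMI counts without normalization, and the deposited TPM values are counts over the library total without length correction. No column was left unmapped. The mRNA tables were not used here.

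Known miRNAs were tested with edgeR 4.0.16 (TMM, filterByExpr, quasi-likelihood test) in R 4.3.3, in 1 model of the 7 groups and 21 brain libraries, with calls over 1.5-fold and a Benjamini-Hochberg adjusted p below 0.05. The alternatives were DESeq2 1.42.0, RLE factors, library totals, limma-trend (limma 3.58.1) on log2(TPM + 1) or log2(TPM + 0.1), other filters, the 6 libraries alone, a replicate block, predicted miRNAs kept, near-identical rows merged (added after the data were seen) and each library left out. The difference between tissues was an edgeR interaction term over 12 libraries with the rat as a block. The test on simulated counts recovered 52.6% of 2-fold and 89.8% of 4-fold changes in the brain comparison and called 0.417% of unchanged miRNAs. The 3 libraries of a group come from separate rats. Same-numbered libraries did not deviate together (r of −0.22, 0.014 and −0.0045), beside r of −0.11 to 0.15 for unlike numbers. The labels pair no rats by number, and a check on 3 libraries a group cannot exclude a shared batch.

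Named are called miRNAs that changed most and did not overlap between groups, the 10 most abundant, list members, those the study names and other arms or seed mates. Not described above are miR-339-3p, which rose by 2.15 on the log2 scale, and several that fell. These are miR-344b-1-3p (−2.41), miR-325-5p (−1.88), miR-708-3p (−1.63) and miR-376c-3p (−1.56). Members and lists were chosen with earlier results of these data known. In the alternatives 0.1 and 1 were the pseudocounts, and rows differing by at most 5% wherever they had 20 counts were merged. Likeness is a Pearson r without a test. Sequences come from RefSeq (GRCr8), and no coordinates are given because the builds differ. Python 3.11.15 with pandas 2.3.3 and matplotlib 3.10.9 made tables and figures.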

Additional observations from a re-analysis of the deposited data

Results flagged for a closer look

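Predicted miRNAs, which the comparisons above leave out, were tested beside the known ones as an alternative. The count table lists 4790 of them and 1501 passed the filter on low counts. At 31 days 246 were called lower and 15 higher than in healthy rats (edgeR adjusted p under 0.05 and over 1.5-fold). In the same fit 16 known miRNAs were called lower and 26 higher, in place of 44 and 44 without the predicted ones, and the median log2 fold change of the known ones was 0.23 in place of 0.11. The share of counts on known miRNAs was 88.9% to 93.2% in the control and 86.1% to 88.1% in the healthy libraries. The part of this difference in shares in the calls was not tested.

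MiR-155-5p stood out because its groups lay apart in both tissues in opposite directions. In brain EVs it measured 3.41, 17.03 and 7.01 CPM in healthy and 77.5, 89.3 and 35.8 CPM in control rats at 31 days. In plasma EVs it measured 374.3, 343 and 537 CPM in healthy and 110.8, 108.3 and 329.2 CPM in control rats. The difference between tissues in the log2 change was 4.54 (standard error 0.99, edgeR adjusted p = 0.111), which does not pass the correction over 384 miRNAs.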

How the results depend on the processing

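Of the 103 named changes at 31 days, the 88 called kept their sign in up to 17 other fits, and 5 that were not called (let-7f-5p, miR-21-5p, miR-29a-3p, miR-29c-3p and miR-30a-5p) changed it in at least 1. Over these fits 231 values missed the threshold that the main value passed and 8 passed it where the main value had not. With predicted miRNAs kept, 262 features were called lower against healthy rats in place of 44, of which 16 were known miRNAs, and 249 in place of 101 were called against the control group at 4 days. Leaving out 1 library gave 30 to 41 higher and 32 to 52 lower against healthy rats, and 78 to 102 calls against the control group at 4 days. With a replicate block 51 were higher and 46 lower, although the labels pair no rats by number, and 102 differed from 4 days. In plasma, 0 calls became 18 with DESeq2, 7 without a filter on low counts, 51 at an unadjusted p and over 1.5-fold, and 0 to 32 with 1 library left out. The difference between tissues gave 0 calls, 9 without the rat block and 0 to 74 with 1 rat left out. In both, the highest count came without control 31 d replicate 3. The cause was not tested. The 6 brain libraries held 343498 to 1034719 UMI counts, so that a miRNA of a few CPM rests on a few counts.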

Other observations

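A few miRNAs outside the lists above, chosen after their values were seen, also moved with groups that did not overlap. MiR-31a-5p measured 102, 89.0 and 126.1 CPM in healthy and 272, 267 and 197 CPM in control libraries, a log2 fold change of 1.22 (edgeR adjusted p = 0.000794). MiR-423-5p measured 126.2, 168 and 159 CPM and 429, 403 and 239.5 CPM (1.24, edgeR adjusted p = 0.00498). MiR-135a-5p measured 423, 229 and 467 CPM and 837, 649 and 777 CPM (1.02, edgeR adjusted p = 0.00646), and miR-135b-5p had almost the same counts. In each of these the lowest control library was above the highest healthy one.

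Among those that fell were miR-384-5p, a brain-enriched miRNA known from synaptic plasticity, and the 3p arms of miR-138. Their far more abundant 5p arm, miR-138-5p, was not called (log2 fold change −0.10, edgeR adjusted p = 0.84). MiR-384-5p measured 3396, 2546 and 2756 CPM in healthy and 1442, 1373 and 1894 CPM in control libraries (−0.89, edgeR adjusted p = 0.0016), with the seed of the miR-30 family, whose other 5 tested members had log2 fold changes of 0.15 to 0.66 and were not called. MiR-138-2-3p measured 126.2, 125 and 119 CPM and 68.9, 61.5 and 56.0 CPM (−0.98, edgeR adjusted p = 0.00605). MiR-340-5p measured 392.2, 291 and 425 CPM and 195, 207 and 183.6 CPM (−0.91, edgeR adjusted p = 0.00644). All 3 lay below the healthy libraries in every control library.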
